A study of Homo sapiens with 9 samples.

Results

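The genes of protein entry into the endoplasmic reticulum (ER) and of N-glycosylation were examined in HaCaT cells after exposure to an extremely low frequency electromagnetic field (ELF-EMF). Members were all features of the array whose annotated gene symbol belongs to the signal recognition particle (SRP) and its receptor, the Sec61 translocon and its associated TRAP complex, the signal peptidase, the ALG and DPM enzymes, the oligosaccharyltransferase, the glucosidases and lectin chaperones, and the protein disulfide isomerases with TMX2. This rule used names and no measured value. It gave 60 features for 50 genes, of 30968 features in all, of which 17397 carried 1 gene symbol. Where a gene had more than 1 feature, they are called probe 1 and probe 2 in the order of their array identifiers, and the probes of a gene are not replicates of each other. TMX2 is listed on the array under its older symbol TXNDC14, and SRPRA under SRPR.

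HaCaT is an established, immortalized and non-tumorigenic human keratinocyte line. The cells were synchronized by serum starvation and serum re-addition. Exposed cells received a 50 Hz field of 1 mT for 1 h. The non-exposed control cells, from the same flask, were kept in an identical incubator without the field. Each of the 3 biological samples (A, B, C) was measured on 2 arrays that carried exposed-cell RNA in the Cy5 channel, called Cy5 arrays here (A1 and A2, for example), and on 1 dye swap that carried it in Cy3, giving 9 two-colour arrays. Every value below is a log2 ratio of exposed over non-exposed cells, with the dye swaps turned to this direction. A ratio holds no level, so genes cannot be ordered by abundance here, and in such bulk RNA fewer expressing cells and less RNA per cell cannot be told apart.

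A protein bound for the secretory pathway is recognised by SRP while it is being translated, handed to the SRP receptor on the ER membrane and threaded through the Sec61 channel, with the TRAP complex beside it. The signal peptidase removes the signal sequence, and the oligosaccharyltransferase transfers a preassembled glycan from the lipid dolichol to asparagine residues. Glucosidases then trim that glycan so that calnexin and calreticulin can hold the protein while disulfide isomerases pair its cysteines. In keratinocytes, integrins and desmosomal cadherins are among the proteins made along this route.

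The arrays held 1164 to 7250 values each, and their medians of the deposited Cy5 over Cy3 log2 ratio lay between -0.35 and 0.38. Of 14 keratinocyte markers on the array, 13 had a value on at least 1 array, against 1 of 6 fibroblast, 1 of 5 melanocyte and 0 of 3 immune markers. The second array of sample C, array C2, stood apart. After turning, it correlated at -0.42 to -0.36 with the 3 dye swaps, while the dye swaps correlated at 0.38 to 0.45 with each other and C2 at -0.19 to 0.10 with the other arrays of its own orientation. The deciding results are therefore given with and without C2. The other Cy5 arrays correlated at 0.06 to 0.48 with each other but only at -0.13 to 0.15 with the turned dye swaps. Agreement across the orientations was thus weak on those arrays too. All 3 arrays of sample B had a median below 0 in the exposed over non-exposed direction (-0.13, -0.35 and -0.38), and B was the lowest of the 3 samples for 9 of the 11 member features tested below, compared with 58.9% of all features in the same fit. The part of these array medians in the member values was not tested.

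Members had values more often than the array as a whole. Of the 60 member features, 46 (76.7%) had a value on at least 1 array, compared with 40.6% of all named features. These 46 stood for 38 genes. The other 12 genes had no value on any array, namely ALG10, ALG12, ALG13, ALG14, CALR, DPM3, GANAB, PDIA2, PDIA4, PDIA6, PRKCSH and SPCS3. The glucose trimming group was therefore represented by CANX alone, and of the disulfide isomerases PDIA3, P4HB, PDIA5 and TMX2 were left. All 5 oligosaccharyltransferase genes and all 6 SRP and SRP receptor genes matched on the array had values. No array feature carried the symbol RPN2, OSTC or SRP9, so these groups do not cover every subunit. The step that left features without a value is not described in the sources used here, so a missing value was not read as a missing transcript.

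**Figure D1:**
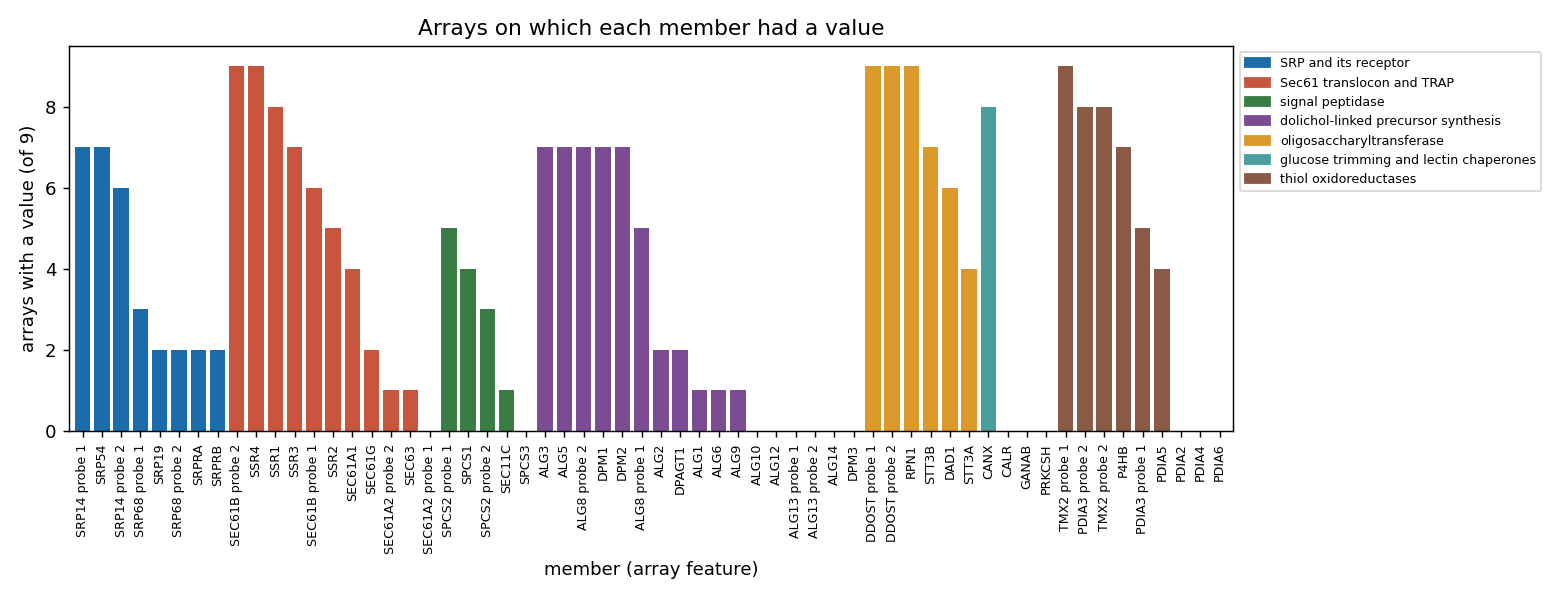
Number of arrays, of 9, on which each of the 60 member features had a value (vertical axis), with the features grouped and coloured by role (horizontal axis). The oligosaccharyltransferase features had a value on 4 to 9 arrays each, whereas 12 genes had none.

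The effect of exposure was tested with limma on 1 dye-balanced value per biological sample, the mean of both orientations, over the 570 features that every sample had measured in both orientations. Of the members, 11 features for 9 genes entered this test. Exposure left 10 of these 11 short of the threshold of 0.05 on the Benjamini-Hochberg adjusted p, 1 was lower and 0 were higher. That is 9.09% of the members tested, beside 3.86% of all 570 features called lower and 0% called higher. Of the 11, 8 were below 0 and 3 above, with a median log2 ratio of -0.16, and of all 570 features 75.3% were below 0, with a median of -0.12. An unadjusted p under 0.05 was reached by 4 of the 11 members and by 116 of the 570 features. With the spread of each feature taken alone, these counts were 1 and 32. Centring each array on its own median moved the median of all features to -0.02 and that of the members to -0.05. It changed the calls from 22 lower and 0 higher to 13 lower and 4 higher among all features, and left 1 member lower and 0 higher.

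The one member that passed was probe 2 of TMX2, a thioredoxin-related transmembrane protein of the ER. Its dye-balanced log2 ratio was -0.44 in sample A, -0.74 in B and -0.57 in C, all 3 below the median of all features. The mean was -0.58 ± 0.15 (SD, n = 3), a 0.667-fold level in exposed cells, with an adjusted p of 0.00851 in limma. On the single arrays it read -0.60 on A1, -0.05 on A2, -0.23 on B1, 0.01 on C1 and 1.09 on C2, with no value on B2. The turned dye swaps read -0.56 in A, -1.25 in B and -1.69 in C. The low mean thus came mainly from the dye swaps, which averaged -1.17 ± 0.57 (SD, n = 3), whereas the Cy5 arrays averaged -0.0026 ± 0.48. That Cy5 mean includes C2 (1.09), and the other Cy5 arrays ran from -0.60 to 0.01. In sample C the highest array of all, C2, was averaged with the lowest of all, the dye swap.

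The dye effect, the Cy5 over Cy3 shift shared by both orientations in a limma fit with a dye and an exposure term, was 0.61 ± 0.16 (SE) for this probe, with an adjusted p of 0.0198. It was the only 1 of the 11 members to follow the dye (9.09%), beside 7.54% of all 570 features. With each array centred it no longer passed (dye effect 0.49, limma adjusted p = 0.0867). The dye effect was smaller but still passed when C2 was left out (0.46, limma adjusted p = 0.0345). Without array C2 the exposure value of the probe was -0.67 (adjusted p = 0.00138). It was no longer past the threshold without sample B (adjusted p = 0.227), without sample C (adjusted p = 0.0692) or with the spread of each feature taken alone (adjusted p = 0.601), a setting under which limma called 0 of the 570 features and 32 had an unadjusted p under 0.05.

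The other probe of the same gene, TMX2 probe 1, did not pass. It read 0.02 in A, -0.30 in B and -0.20 in C, a mean of -0.16 ± 0.16 (SD, n = 3) with an adjusted p of 0.584 in limma. Unlike probe 2, it was lower on the Cy5 arrays (-0.28) than on the turned dye swaps (-0.04). The dye-balanced difference between the probes, probe 1 minus probe 2, was 0.46 in A, 0.44 in B and 0.37 in C. On single arrays the same difference ran from -1.21 on C2 to 1.65 on the dye swap of C, and the probes had the same sign on 4 of the 8 arrays that measured both. Averaged over both probes, TMX2 stood at -0.37 and did not pass (adjusted p = 0.138).

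**Figure D2:**
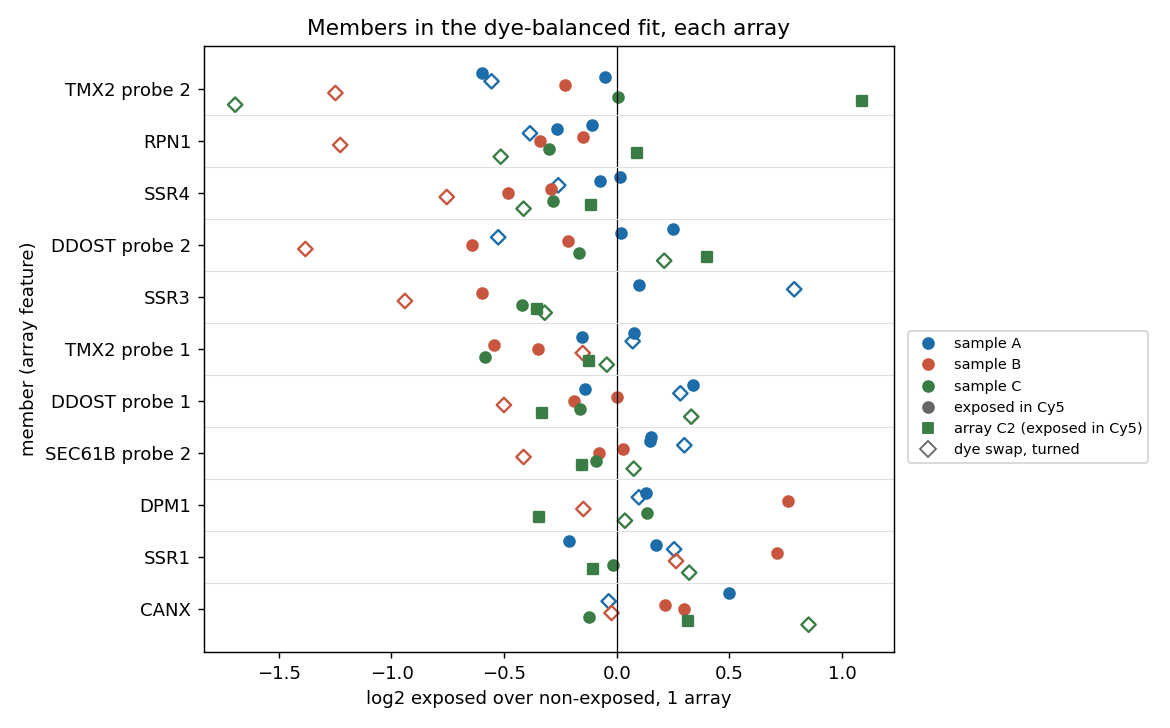
Log2 ratio of exposed over non-exposed cells on each array (horizontal axis) for the 11 member features of the dye-balanced test (vertical axis). Colours mark the biological samples, filled symbols the Cy5 arrays, squares array C2 and open diamonds the turned dye swaps. For TMX2 probe 2 the points run from -1.69 on the dye swap of C to 1.09 on C2.

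Within the oligosaccharyltransferase, RPN1 came next in order. RPN1, also called ribophorin I, is a subunit that binds substrates for the catalytic STT3 proteins. It read -0.29 in A, -0.74 in B and -0.31 in C, a mean of -0.44 ± 0.25 (SD, n = 3) with an adjusted p of 0.0671 in limma. RPN1 was below 0 on 8 of 9 arrays, and the exception was C2 (0.09). Without C2 the mean was -0.48 and the adjusted p 0.0425. RPN1 stayed short of the threshold in limma without sample B (adjusted p = 0.716) or C (0.125), with each array centred (0.138) or with its own spread (0.601). Of its 18 alternatives 2 passed, leaving out C2 and turning C2, which were added after the data were seen. Both orientations were below 0, at -0.18 ± 0.07 (SD, n = 3) on the Cy5 arrays and -0.71 ± 0.45 for the turned dye swaps, and its dye effect of 0.26 did not pass (adjusted p = 0.122).

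DDOST, a further non-catalytic subunit of the same enzyme, was measured by a pair of probes on all 9 arrays. Probe 2 read -0.20 in A, -0.91 in B and 0.16 in C, a mean of -0.31 ± 0.54 (SD, n = 3; limma adjusted p = 0.229). Probe 1 read 0.19, -0.30 and 0.04, a mean of -0.02 ± 0.25 (adjusted p = 0.967), and its sign turned when each array was centred (0.09). The samples straddled 0 for both probes, and the spread over samples exceeded each mean.

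The TRAP subunits, which sit beside the Sec61 channel, did not share a direction. SSR4, the delta subunit, read -0.14 in A, -0.57 in B and -0.31 in C, a mean of -0.34 ± 0.22 (SD, n = 3; limma adjusted p = 0.179), and it was below 0 on 8 of 9 arrays. SSR3, the gamma subunit, read 0.44 in A, -0.77 in B and -0.35 in C, a mean of -0.23 ± 0.62 (adjusted p = 0.414). SSR1, the alpha subunit, stood above 0 in all 3 samples, with 0.12 in A, 0.49 in B and 0.13 in C, a mean of 0.25 ± 0.21 (adjusted p = 0.373). None of the 3 passed, and the samples of SSR3 overlapped those of both other subunits. The study, by contrast, listed SSR1 among the genes that its SAM analysis called higher, and SAM was not run here. SEC61B, the beta subunit of the channel itself, read 0.22 in A, -0.22 in B and -0.02 in C on probe 2, a mean of -0.01 ± 0.22 (adjusted p = 0.992), and the sign of this value turned with centring (0.10).

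At the upper end stood CANX, the membrane-bound lectin chaperone calnexin. It read 0.23 in A, 0.12 in B and 0.47 in C, a mean of 0.27 ± 0.18 (SD, n = 3) with an adjusted p of 0.293 in limma. The 2 orientations gave nearly equal means for CANX, 0.28 on the Cy5 arrays and 0.26 for the turned dye swaps, but its single arrays ran from -0.13 to 0.85. DPM1, the catalytic subunit of dolichol-phosphate mannose synthase, read 0.11 in A, 0.31 in B and -0.03 in C, a mean of 0.13 ± 0.17 (adjusted p = 0.687). Of the 11 member features, 3 were below 0 in all 3 samples (TMX2 probe 2, RPN1 and SSR4) and 2 were above 0 in all 3 (SSR1 and CANX). These 5 made up 45.5% of the members tested, and 38.6% of all 570 features had 1 sign in all 3 samples.

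**Figure D3:**
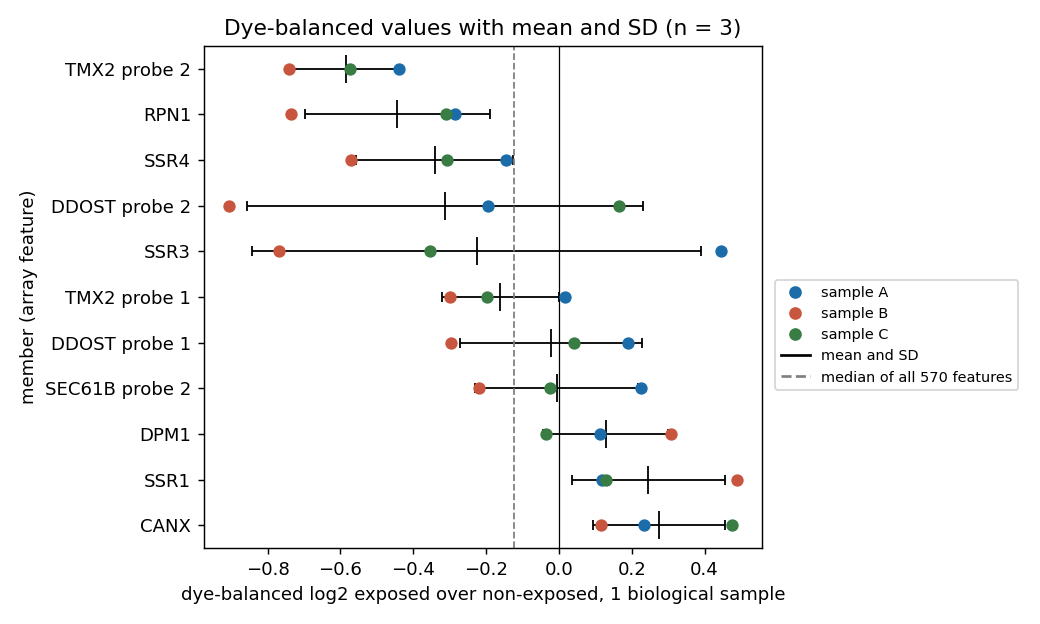
Dye-balanced log2 ratio of exposed over non-exposed cells (horizontal axis) for the 11 member features (vertical axis), with a coloured point for each biological sample and the mean with its SD in black (n = 3). The dashed line is the median of all 570 features, -0.12, and the means run from -0.58 for TMX2 probe 2 to 0.27 for CANX.

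**Figure D4:**
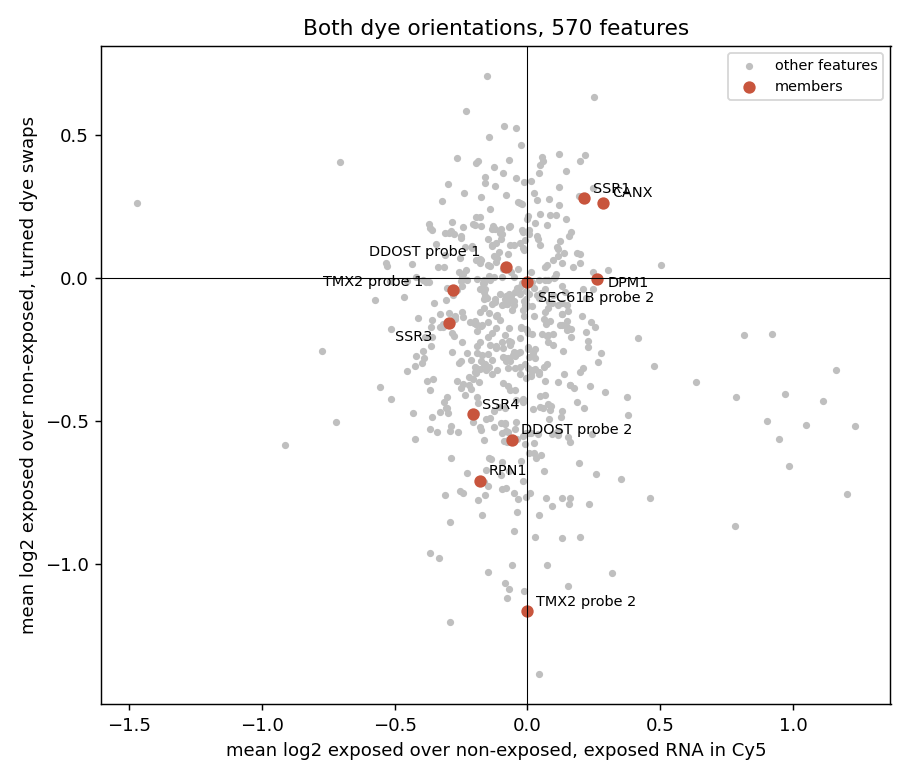
Mean log2 ratio of exposed over non-exposed cells on the Cy5 arrays (horizontal axis) against that on the turned dye swaps (vertical axis) for the 570 features, with the 11 members in colour. TMX2 probe 2 lies at -0.0026 and -1.17, whereas CANX and SSR1 lie above 0 and RPN1 and SSR4 below 0 on both axes. Array C2 is included in the means of the Cy5 arrays.

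The plot of both orientations shows how each member read in either dye. The orientation means had the same sign for 9 of the 11 members and opposite signs for 2, DDOST probe 1 and DPM1. Among the 9, TMX2 probe 2 (-0.0026 on the Cy5 arrays with C2 included, -1.17 on the turned dye swaps) and SEC61B probe 2 (-0.00055 and -0.013) had means close to 0. Their shared sign therefore does not show agreement between the orientations. Over all 570 features, 43.7% had opposite signs, and the orientation means correlated at -0.11, a description across features that share arrays and dyes.

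The promoters of CANX, SSR3, SSR4 and TMX2 are shown because several genes of this route are known targets of the unfolded protein response. The factors of that response bind short motifs near gene starts. Of the TRAP genes, only SSR3 and SSR4, in which a motif was found, are printed, and SSR1 and SSR2 are not. Promoter windows of 300 bases (250 before and 50 after a gene start) from RefSeq (GRCh38.p14) could be matched for 44 of the 50 member genes. Windows were searched on both strands for the ER stress response element, spelled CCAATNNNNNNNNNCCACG, and for the core of the unfolded protein response element, spelled TGACGTGG. The former was found in 27 of all 35116 windows (0.0769%) and among members in those of CANX, CALR, PDIA6 and ALG12. The latter was found in 256 windows (0.729%) and among members in those of SSR3, SSR4 and SRP19. The motifs did not occur together in any member window. A match describes letters in a window and is not a measured binding site. Below are the 250 bases before the start, 5′ to 3′ along the gene, with the matched motif in capitals; it ends 133 bases before the start in CANX, 34 in SSR3 (read on the opposite strand) and 122 in SSR4 (also on the opposite strand), and the TMX2 window held neither.
CANX (chr5:179698679-179698928, + strand): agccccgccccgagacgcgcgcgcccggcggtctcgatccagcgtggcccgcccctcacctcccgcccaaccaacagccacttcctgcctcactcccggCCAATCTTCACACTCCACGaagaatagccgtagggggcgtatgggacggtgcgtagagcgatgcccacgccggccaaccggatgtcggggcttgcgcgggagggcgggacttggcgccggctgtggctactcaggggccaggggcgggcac
SSR3 (chr3:156554126-156554375, - strand): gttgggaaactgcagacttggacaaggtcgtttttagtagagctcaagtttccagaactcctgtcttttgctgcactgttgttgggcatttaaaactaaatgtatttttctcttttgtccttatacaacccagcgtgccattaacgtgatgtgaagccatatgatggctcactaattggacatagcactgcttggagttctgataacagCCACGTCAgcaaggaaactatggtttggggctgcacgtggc
SSR4 (chrX:153794418-153794667, + strand): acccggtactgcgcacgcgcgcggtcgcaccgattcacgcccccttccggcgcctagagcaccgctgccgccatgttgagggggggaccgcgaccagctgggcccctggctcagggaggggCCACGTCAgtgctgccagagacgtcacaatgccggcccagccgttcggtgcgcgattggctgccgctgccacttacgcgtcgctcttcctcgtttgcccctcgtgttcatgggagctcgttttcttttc
TMX2 (chr11:57712343-57712592, + strand): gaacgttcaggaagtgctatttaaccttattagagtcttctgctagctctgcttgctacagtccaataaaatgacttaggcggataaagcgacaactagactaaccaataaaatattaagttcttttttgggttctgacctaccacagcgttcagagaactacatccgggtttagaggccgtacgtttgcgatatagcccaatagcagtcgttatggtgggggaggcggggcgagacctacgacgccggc

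Of the 4 genes with the ER stress response element, only CANX had values on the arrays (mean 0.27, not past the threshold), and CALR, PDIA6 and ALG12 had none. The genes with the shorter core stood at -0.34 for SSR4, -0.23 for SSR3 and 0.40 for SRP19, of which the last rested on 2 arrays. Of the genes with either motif, only CANX, SSR3 and SSR4 entered the dye-balanced test, and none of them passed.

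Members that lacked an orientation in some sample, or a whole sample, were read from a second fit. A sample seen in a single orientation is then not dye-balanced. The second fit covered the 5688 features measured in 2 or more of the samples and added 28 member features to the 11 above, which it also holds. Limma called 0% of the 5688 features and 0 of the 39 members, with 216 features and 5 members at an unadjusted p under 0.05. TMX2 probe 2, with the same 3 sample values as above, had a limma adjusted p of 0.883 in this fit. The median of the 39 was -0.13 and that of all 5688 features -0.09. Of the 28 added features, 26 were without a dye swap in 1 or more samples, so dye and exposure cannot be told apart in part of their values. P4HB and STT3B had every dye swap but no Cy5 array in sample B, so the same holds for their B values.

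For SRP and its receptor all 8 features came from this second fit, 3 below and 5 above 0 (2 and 6 with each array centred). SRP14, the subunit that with SRP9 slows elongation, gave 0.46 in A, 0.20 in B and -0.36 in C on probe 1 and 0.04, -0.20 and 0.18 on probe 2, so the probes disagreed on the order of the samples. SRP54, the subunit that binds the signal sequence, read 0.15 in A, -0.45 in B and 0.27 in C, a mean of -0.01 ± 0.39 (SD, n = 3). SRP68 and SRP19 are further proteins of the particle. SRP68 probe 1 had 0.16 in A, -1.02 in B and 0.04 in C on 3 arrays, and its probe 2 had 0.36 in A and 0.16 in C. SRP19 had -0.11 in A and 0.91 in C, and its mean of 0.40 ± 0.72 (SD, n = 2) was the highest of all members in this fit. The receptor subunits SRPRA (0.17) and SRPRB (-0.18) rested on 2 arrays each.

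For the channel and TRAP, SSR2, the beta subunit of TRAP, read 0.09 in A, -0.73 in B and 0.01 in C (mean -0.21 ± 0.45, SD, n = 3). SEC61A1, the pore-forming subunit, read -0.01, -0.35 and 0.02 (mean -0.12 ± 0.21). SEC61B probe 1 read 0.11, -0.04 and 0.18 (mean 0.08 ± 0.11). Only sample B lay clearly below 0 for SSR2 and SEC61A1, and its only array for SEC61A1 was the dye swap. SEC61G had values in sample A alone, 0.11 and 0.89, and SEC61A2 probe 2 had a value on C2 alone (1.07).

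In the signal peptidase, SPCS1, an accessory subunit, had the lowest mean of all members in the second fit. It read -0.30 in A, -1.33 in B and -0.35 in C, a mean of -0.66 ± 0.58 (SD, n = 3; limma adjusted p = 0.883). All 4 of its arrays were below 0, and the value of B was its dye swap alone. The probes of SPCS2, a further accessory subunit, differed, with means of -0.07 for probe 1 and 0.09 for probe 2. SEC11C, a catalytic subunit, had 1 value (-0.69).

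In the synthesis of the dolichol-linked precursor, the values fell on both sides of 0, 5 below and 3 above with DPM1 included (4 and 4 with each array centred). ALG8, a glucosyltransferase that works late in the assembly, was below 0 on all 5 arrays of probe 1, with -0.19 in A, -0.79 in B and -0.38 in C (mean -0.46 ± 0.31, SD, n = 3). Its probe 2 read -0.15, -0.55 and 0.33 (mean -0.13 ± 0.44). DPM2, a regulatory subunit of the same synthase as DPM1, read -0.33, -0.43 and -0.05 (mean -0.27 ± 0.20). ALG3, a mannosyltransferase, read 0.39, -0.17 and -0.86 (mean -0.21 ± 0.63), and ALG5, which makes dolichol-phosphate glucose, read 0.20, -0.09 and 0.19 (mean 0.10 ± 0.16). Of these, ALG3 varied most between samples, and no feature of the group passed.

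The catalytic subunits of the oligosaccharyltransferase lay on either side of 0. STT3A, which acts on proteins during translocation, read -0.09 in A, -0.25 in B and -0.06 in C (mean -0.13 ± 0.10, SD, n = 3). STT3B, which acts on sites missed by STT3A, read 0.25, 0.44 and 0.04 (mean 0.24 ± 0.20), with C2 as its only array below 0. The B value of STT3B was its dye swap alone. The difference between the paralogs was not tested. DAD1, a small membrane subunit, was below 0 on all 6 of its arrays and read -0.30, -1.001 and -0.23 (mean -0.51 ± 0.43), without passing (limma adjusted p = 0.883). Of the 6 oligosaccharyltransferase features, STT3B alone had a mean above 0, joined by DDOST probe 1 when each array was centred.

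All 6 features of the disulfide isomerases, both TMX2 probes included, had means below 0, also with each array centred, but without array C2 PDIA3 probe 1 stood at 0.02. P4HB, the founding protein disulfide isomerase, was below 0 on all 7 of its arrays, with -0.10 in A, -0.46 in B and -0.51 in C (mean -0.36 ± 0.23, SD, n = 3; limma adjusted p = 0.883). The B value of P4HB was its dye swap alone. PDIA3, the isomerase that partners calnexin and calreticulin, read 0.24, -0.28 and -0.43 on probe 2 (mean -0.16 ± 0.35) and 0.12 in A and -0.17 in C on probe 1 (mean -0.03 ± 0.21, n = 2). PDIA5 read -0.29, 0.01 and -0.55 (mean -0.28 ± 0.28). Of all 5688 features 65.8% were below 0 in this fit and 51.3% with each array centred, and none of these added isomerase features passed. Sample B was the lowest of the samples for 14 of the 20 added member features that had 3 samples. The same share over all features of this fit was not taken, so the count is not read as a trait of the members.

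**Figure D5:**
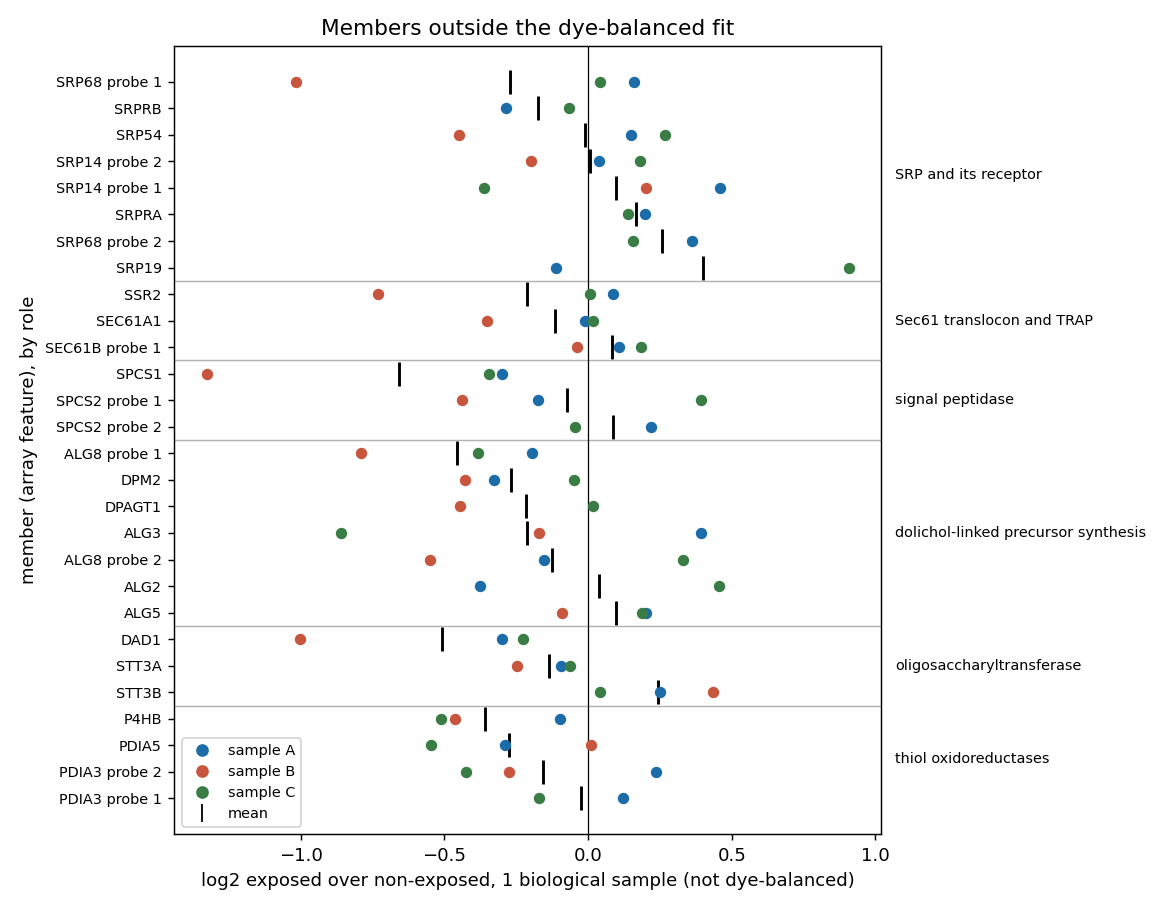
Log2 ratio of exposed over non-exposed cells per biological sample (horizontal axis) for the 28 member features outside the dye-balanced test (vertical axis, by role), with a coloured point for each sample and the mean as a black mark. The means run from -0.66 for SPCS1 to 0.40 for SRP19, and sample B is the left-most point of SPCS1, DAD1, SRP68 probe 1 and SSR2.

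The remaining 7 member features had values in 1 biological sample only, between -0.69 and 1.17, and were not tested. They belonged to SEC61G, SEC61A2, SEC63, SEC11C, ALG1, ALG6 and ALG9. ALG2 and DPAGT1, the enzymes at the start of the precursor pathway together with ALG1, had values in 2 samples on opposite sides of 0 (ALG2 -0.38 and 0.46, DPAGT1 -0.45 and 0.02).

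Further ER genes outside the rule were read from 6 lists: symbols of the same or related machinery that the rule does not match (such as TLOC1, now SEC62, and KRTCAP2), translocation helpers, ER folding and quality control, ER-associated degradation, the unfolded protein response and sugar supply. Of their 108 features for 92 genes, 77 had a value, 6 entered the dye-balanced test and none passed, neither higher nor lower. These 6 were TMEM93 (EMC6, -0.28 ± 0.15, SD, n = 3), TMEM85 (EMC4, -0.22 ± 0.27) and C15orf24 (EMC7, 0.14 ± 0.38) of the ER membrane protein complex, the chaperone SDF2L1 (-0.24 ± 0.39), the degradation factor HERPUD1 (-0.14 ± 0.15) and TLOC1 (SEC62, 0.02 ± 0.08), a helper of translocation after translation. The smallest adjusted p among them was 0.283 in limma, and 0 had an unadjusted p under 0.05. In the second fit, 51 features of these lists had values, 39 below and 12 above 0 (32 and 19 with each array centred), with a median of -0.15 and none past the threshold. The unfolded protein response list had the lowest median of the 6 lists, -0.25 over 7 features, with 6 below and 1 above 0. With each array centred the counts were the same and the median was -0.16. Of all 5688 features 65.8% were below 0 (51.3% centred), with a median of -0.09. None of the 7 entered the dye-balanced test. PPP1R15A, MBTPS1 and MBTPS2 had values on 2 arrays each, DDIT3 and TRIB3 on 3, and EIF2AK3 and XBP1 on 6.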

How the data were processed

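RNA of exposed and non-exposed HaCaT cells was amplified, labelled with Cy3 or Cy5 and hybridized to Phalanx Human OneArray slides. Scans were normalized by the authors in ScanArray Express, by a method not named in the sources used here. The authors deposited 1 value per feature and array, read here as the log2 of Cy5 over Cy3: so read, 86.6% to 99.1% of the ratios of an array lay within 0.05 of a whole number of thousandths, against at most 10.3% with other logarithms. Intensities and backgrounds were not used here, so signal over background is unknown, and the number of arrays limits the precision. Dye swaps were turned by the labelled dyes, and array medians were kept as deposited.

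Limma 3.58.1 (R 4.3.3, lmFit, eBayes, two-sided, Benjamini-Hochberg over all features fitted, threshold 0.05) was run on 3 biological samples. In the dye-balanced fit it estimated 1 standard error for all features, 0.154. The study used the SAM software, which was not run. The dye effect was fitted on 9 arrays with a random block for the biological sample (estimated correlation -0.0775). The script was tested on simulated data. Cultures of 1 flask may share more than independent ones, so p-values measure only the spread between these samples. In the dye-balanced fit that spread was pooled over the 570 features, so a feature's own spread did not enter its p-value. With 3 samples an exact sign-flip test of 1 value cannot go below 0.25.

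Symbols come from the platform annotation, updated through RefSeq. Members and lists were chosen with earlier results of these data known. All members of the dye-balanced fit were named, then up to 4 further genes per role with values on the most arrays, and the companion genes of the dye-balanced fit; others were named where a count was small or a motif was found, after their values were seen. Alternatives covered dye weighting, centring, filters, spread and left-out samples or arrays; leaving out or turning C2 was added after the data were seen.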

Additional observations from a re-analysis of the deposited data

Results flagged for a closer look

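STT3B read -0.61 on array C2, far below its other 3 Cy5 arrays, of which the next lowest was 0.07. ALG5 read 0.73 on array A1, far above its other 4 arrays of that orientation, of which the next highest was 0.02. Each of these exceeded Dixon's 95% limit, among 25 member features examined with 4 to 6 such arrays, and chance alone gives such a value in about 1 of 20 groups. TMX2 probe 2 differed between the dye orientations, with a dye effect of 0.61 on the log2 scale (limma adjusted p = 0.0198). It no longer passed with each array centred (0.49, adjusted p = 0.0867) and passed without C2 (0.46, adjusted p = 0.0345).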

How the results depend on the processing

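The number of calls changed with the settings. Among all features, 22 lower and 0 higher became 8 and 3 with a plain mean of the arrays and 5 and 14 with Cy5 arrays only. They became 13 and 4 with centred arrays, and 9 and 1 with quantile normalization. With the dye swaps unturned they were 0 and 33, but exposure then cancels in the mean of both orientations. That setting measures the dye and does not test the exposure result, although the counts of alternatives in this text include it. The lower calls numbered 9 with a dye term on 9 arrays, 10 with only dye swaps, 14 with a value required on all 9 arrays and 0 with each feature's own spread. They stayed closer to the main count with both orientations required in at least 2 samples (25), a robust estimate of spread (16) or probes averaged (21). Without array C2 they were 37 lower and 1 higher, and with C2 turned 47 and 1. Leaving out a biological sample or a set of technical arrays gave 3 to 29 lower and 0 to 3 higher. The count of members lower, 1, became 0 with a plain mean, a dye term, Cy5 arrays only, all 9 arrays required (TMX2 probe 2 lacks 1), own spread or probes averaged. It became 2 without C2 or with C2 turned, the added member being RPN1 (limma adjusted p = 0.0390 with C2 turned). With the swaps unturned, which measures the dye, it was 0. Leaving out samples or technical arrays gave 0 to 1. In the fit of features in 2 or more samples, 0 calls became 10 lower and 46 higher with Cy5 arrays only and 3 higher with own spread, and without 1 biological sample 0 to 5 lower and 0 to 18 higher, but 0 members in each. The count of members following the dye, 1, became 0 with centred arrays. The causes were not tested.

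For TMX2 probe 2, limma adjusted p was 0.0986 with a plain mean, 0.0628 with a dye term and 0.998 with Cy5 arrays only, C2 included. Over its 17 alternatives it ranged from 0.00011 to 0.998, with 9 past the threshold. Of 190 values of single members under alternatives, 161 kept direction and side, 7 lost the threshold, 2 gained it and 20 turned sign. With the swaps unturned, a setting that measures the dye, these were SSR1 (-0.035), SSR4 (0.13), RPN1 (0.26), SEC61B probe 2 (0.0060), DDOST probe 2 (0.25) and TMX2 probe 2 (0.58). DPM1 (-0.0043) and DDOST probe 1 (0.038) turned with only dye swaps. DDOST probe 1 turned with centring (0.090), quantile normalization (0.031) and C2 turned (0.034), and SEC61B probe 2 likewise (0.10, 0.055 and 0.019). With 1 sample or 1 set of technical arrays left out, SSR3 ran from -0.56 to 0.045 (above 0 without sample B), DDOST probe 1 from -0.13 to 0.12 and SEC61B probe 2 from -0.12 to 0.10. The median of the members in the dye-balanced fit ran from -0.25 without sample A to 0.04 without sample B. Each ratio already sets exposed against non-exposed RNA within 1 biological sample, and both orientations were averaged by sample, so no further replicate block was added to the dye-balanced fit.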
